A study of Mus musculus with 36 samples.

Results

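Reloading is the return of body weight to a muscle that has been rested. Its effect on the aged soleus, the slow postural muscle of the calf, was read from 10 of the 36 libraries of the study, which were chosen by their labels alone. In 6 old mice the hind limbs had been held off the ground for 10 days (unloading), and in 4 old mice the same 10 days were followed by 3 days of walking on all limbs (reloading). All were male C57BL/6J mice aged 22 to 24 months with no transgene and no drug, so age, strain, sex and the earlier unloading were shared by both groups, and the labels name 1 soleus library for each mouse. Every soleus was taken late in the morning after a short fast, and total RNA depleted of ribosomal RNA was sequenced. The same 2 treatments in 6-month-old mice (4 unloaded and 4 reloaded) served to ask whether the response differed with age, and 9 old control mice, never unloaded, are given as levels only.

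A soleus that no longer bears weight loses fibre mass: ubiquitin ligases such as those encoded by Fbxo32 and Trim63 tag sarcomere proteins for the proteasome, autophagy removes organelles, and part of the slow and oxidative gene programme gives way to that of fast fibres. When load returns, the weakened fibres are stretched and some are damaged. Proteins anchored at the Z-disc, the plate that holds neighbouring sarcomeres together, sense that stretch, chaperones hold partly unfolded proteins, macrophages clear debris, and fibroblasts, endothelial cells and satellite cells (the stem cells of muscle) divide and rebuild matrix and fibres. Recovery of this kind is known to be slower and less complete in old animals.

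Levels are reads per gene scaled to a common library total (CPM, with TMM scaling) and are compared between mice, not between genes, because they are not divided by gene length. A change is the log2 fold change of reloaded against unloaded old mice ± its standard error, with n = 4 and 6 throughout. Calls rest on edgeR's quasi-likelihood test with a Benjamini-Hochberg adjusted p, taken over all 15031 tested genes, under 0.05, and "rose" and "fell" are kept for called genes. By that rule 27.8% of all genes tested rose and 23.5% fell, 51.3% in all, and 9.49% changed at least 2-fold (6.51% upwards and 2.99% downwards), so a group of genes has to be read against a high background. The median change of all genes was 0.03. For 17.6% of the genes all 4 reloaded mice lay above all 6 unloaded mice, and for 17.5% all 4 lay below them.

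Not all libraries were alike. Totals were 35.4 to 37.9 M reads in reloaded and 33.5 to 36.2 M in unloaded mice. The 12 markers of the fibre itself summed to 311884 to 340809 CPM in unloaded and 347624 to 393836 CPM in reloaded mice, with no overlap. Liver transcripts were present in some: Alb, the gene of the plasma protein albumin, was at 0.195, 1743, 9.19 and 154 CPM in reloaded mice 1 to 4 and ran from 0.247 to 36.2 CPM (median 1.47) in unloaded mice. The summed level of 34 liver genes ran from 66.1 to 193 CPM in unloaded mice, and 33 of the 34 rose. Without reloaded mice 2 and 4, 1 rose and 1 fell. The fit was therefore run again without these 2 mice, which leaves 2 reloaded mice. Calls of named genes that changed, and counts of groups that moved by over 1.5 times, are given both ways. That fit called 22.3% of 15284 genes higher and 21.2% lower (43.4% in all), and 6177 genes were called in the same direction by both fits. Among the unloaded mice, mice 3, 5 and 6 were highest in the fast myosin gene Myh1, and mice 3 and 5 were lowest in the stretch genes Csrp3 and Ankrd2.

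The largest changes came from genes of different cells. Among genes averaging 8 CPM or more that were called with and without reloaded mice 2 and 4, leaving out predicted genes, Nmrk2 rose most. It encodes a kinase that makes the cofactor NAD from nicotinamide riboside in muscle (mm10 chromosome 10, 81198170 to 81202038). It ran from 1.04 to 3.70 CPM (median 3.18) in unloaded mice and was at 73.8, 62.1, 77.1 and 84.3 CPM in reloaded mice 1 to 4, a change of 4.80 ± 0.48, adjusted p = 6.28e-10. The lowest reloaded mouse was far above the highest unloaded mouse, and all 4 lay within the 14.9 to 109 CPM of old controls. Ces5a, a carboxylesterase gene, had the next rise in size (4.48 ± 0.40). After it came Tnc, for the matrix glycoprotein tenascin C (mm10 chromosome 4, 63959785 to 64047016), which ran from 5.03 to 9.02 CPM (median 6.55) and was at 182, 23.9, 194 and 38.9 CPM (3.98 ± 0.45, adjusted p = 8.35e-09). The groups did not overlap, but reloaded mice 1 and 3 stood well above mice 2 and 4. Next in order were the myosin-binding protein H gene Mybph (3.88 ± 0.58), Postn, which encodes periostin (3.69 ± 0.40), and Tnfrsf12a, the receptor of the cytokine TWEAK (3.52 ± 0.35). Cd68, the essential myosin light chain gene Myl6b, Col3a1 and Ltbp2 complete the first 10 rises and are described with their groups.

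The deepest fall was that of Dkk2, a secreted modulator of Wnt signalling (mm10 chromosome 3, 132085292 to 132180305). It ran from 66.3 to 184 CPM (median 93.5) in unloaded mice and was at 5.13, 7.16, 4.24 and 3.70 CPM in reloaded mice (-4.40 ± 0.31, adjusted p = 3.77e-13). The highest reloaded mouse was far below the lowest unloaded mouse and below the old controls (45.2 to 87.6 CPM). Chac1, an enzyme gene of glutathione breakdown that is a late target of the integrated stress response (mm10 chromosome 2, 119351242 to 119354328), went from 20.8 to 60.2 CPM (median 34.6) to 1.98, 3.92, 2.78 and 0.265 CPM (-4.15 ± 0.64, adjusted p = 1.99e-06). Klhl33, of the Kelch-like adaptor family (mm10 chromosome 14, 50891389 to 50893256), went from 21.3 to 55.3 CPM (median 30.5) to 1.78, 4.12, 2.50 and 2.21 CPM (-3.74 ± 0.30, adjusted p = 6.7e-12). In neither did the groups overlap. Arrdc2, an alpha-arrestin gene, ran from 21.2 to 72.7 CPM (median 50.99) and was at 5.63, 5.15, 2.75 and 3.38 CPM (-3.57 ± 0.50, adjusted p = 3.92e-07). Further falls among the first 10 were those of the fast-fibre genes Mybpc2 (-3.22 ± 0.80), Pvalb (-2.95 ± 0.70) and Mylk2 (-2.69 ± 0.21), the methyltransferase gene Inmt (-2.41 ± 0.37), the small membrane protein gene Ctxn3 (-2.31 ± 0.20) and the growth-arrest gene Gadd45g (-2.30 ± 0.33). For Mybpc2 and Pvalb single reloaded mice reached into the unloaded range, and Mybpc2 was not called without the libraries above 20 CPM of Alb (adjusted p = 0.06). For the other 8 falls no value was shared.

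**Figure D1:**
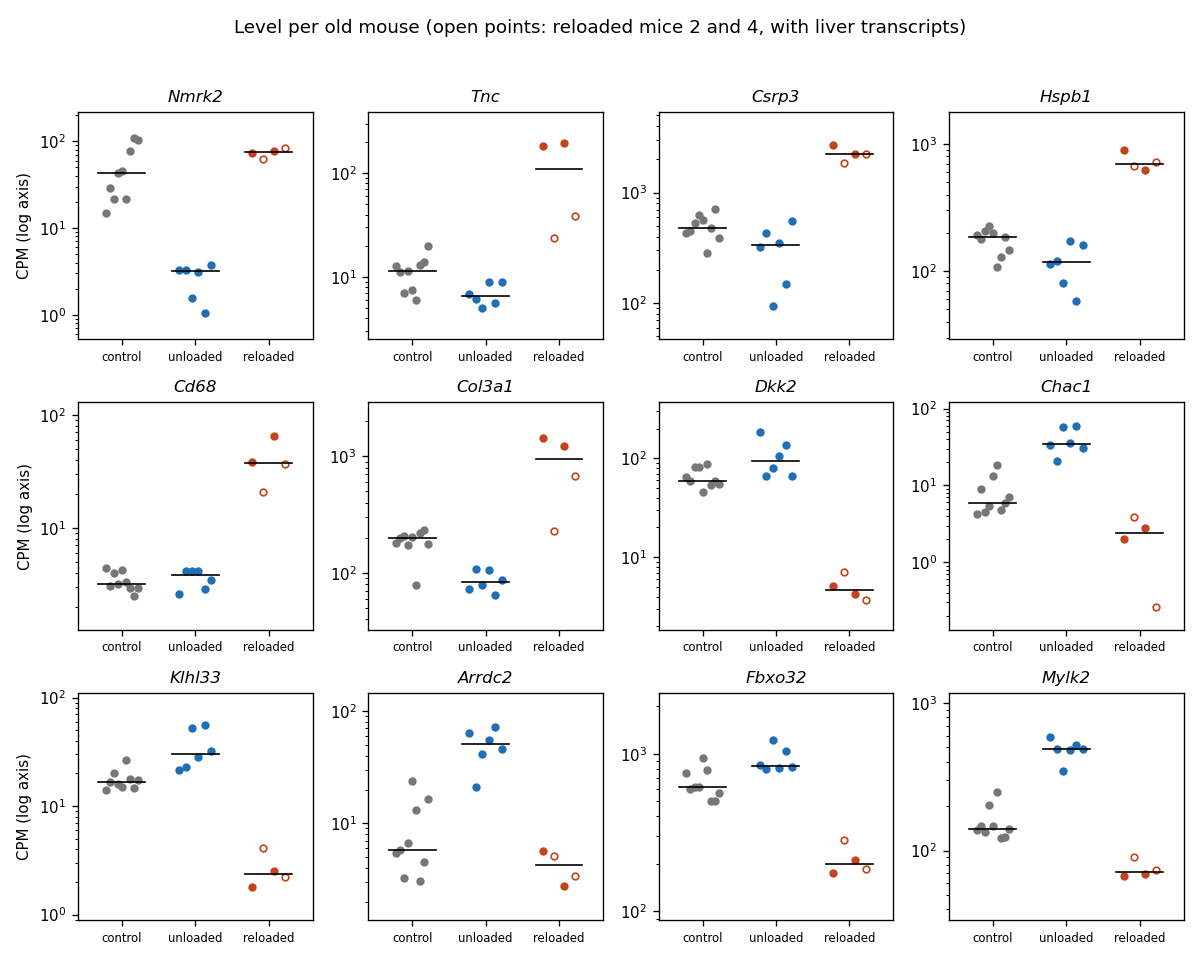
Level in CPM (log axis) of 12 genes in each old control (9), unloaded (6) and reloaded (4) mouse; each point is 1 mouse, and the bar is the group median. Reloaded mice 2 and 4, which carried liver transcripts, are open points. Nmrk2, Tnc, Csrp3, Hspb1, Cd68 and Col3a1 lay higher in every reloaded than in every unloaded mouse, and Dkk2, Chac1, Klhl33, Arrdc2, Fbxo32 and Mylk2 lower.

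Genes of the Z-disc and of stretch sensing rose as a group. Of 32 tested, 23 rose (71.9% against 27.8% of all genes), 2 fell and the median change was 0.78. In 19 of the 32 every reloaded mouse was above every unloaded mouse, against 17.6% of all genes. Without reloaded mice 2 and 4, 20 rose. Their summed level went from 27282 to 37021 CPM in unloaded to 62794 to 76536 CPM in reloaded mice. The largest single part of that sum was Xirp2, which encodes a large actin-binding repeat protein of the intercalated disc and of damaged myofibrils (mm10 chromosome 2, 67446002 to 67526607). Xirp2 ran from 3405 to 4972 CPM (median 4202) in unloaded mice and was at 25785, 15773, 22376 and 25059.7 CPM in reloaded mice (2.42 ± 0.14, adjusted p = 2.14e-15). Every reloaded mouse was above every unloaded mouse, and above the old controls (4829 to 6212 CPM).

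Muscle LIM protein, the Z-disc and nuclear protein encoded by Csrp3 (mm10 chromosome 7, 48830398 to 48848052), had transcript levels of 93.8 to 552 CPM (median 334) in unloaded and 2685, 1838, 2254 and 2215 CPM in reloaded mice (2.84 ± 0.30, adjusted p = 2.47e-09). Its relatives in the group are the ankyrin-repeat proteins that shuttle between titin and the nucleus. Ankrd2 went from 141 to 441 CPM (median 329) to 1912, 2236, 1792 and 1968 CPM (2.70 ± 0.23, adjusted p = 3.13e-11). Ankrd1 went from 15.9 to 75.2 CPM (median 30.7) to 525, 182, 353 and 205 CPM (2.94 ± 0.47, adjusted p = 3.31e-06). In these 3 genes unloaded mice 3 and 5 were among the lowest and no reloaded mouse fell into the unloaded range. The Z-disc actin-bundling gene Synpo2l (1.66 ± 0.13), the small nuclear protein gene Mustn1 of repairing muscle (2.66 ± 0.23) and the chaperone gene Cryab (2.03 ± 0.21) also rose, as did the LIM-domain genes Fhl1 (1.37 ± 0.15), Fhl2 (0.80 ± 0.16) and Ldb3 (0.72 ± 0.14). Tcap, the cap of titin at the Z-disc, fell (-0.45 ± 0.13), and so did Myoz1, the calcineurin-binding myozenin of fast fibres (-0.87 ± 0.15). Its slow-fibre counterpart Myoz2 had a value of 0.22 ± 0.15, adjusted p = 0.214, and Nrap, a scaffold of myofibril assembly, one of 0.00 ± 0.10, adjusted p = 0.987, while its most abundant transcript alone fell (adjusted p = 0.000535).

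The promoters of this group were searched for the CArG box, the site of serum response factor, because that factor drives many load-sensitive muscle genes. RefSeq promoters (250 bases before to 50 after the start, GRCm38.p6, both strands) were found for 25 of the 32 genes, and 3 held a CArG box (Fhl1, Fhl2 and Ldb3, which all rose), against 181 of 11424 tested genes with a promoter (1.58%). The 3 stretches, with the box in capitals, lie at chrX:56779541-56779630 (plus strand), chr1:43163943-43164032 (minus strand) and chr14:34588667-34588756 (minus strand), 5′ to 3′ on the strand of the gene:
Fhl1: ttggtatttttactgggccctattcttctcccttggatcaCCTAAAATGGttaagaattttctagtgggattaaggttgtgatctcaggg
Fhl2: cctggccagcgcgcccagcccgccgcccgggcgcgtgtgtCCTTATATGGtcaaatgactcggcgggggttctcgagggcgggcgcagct
Ldb3: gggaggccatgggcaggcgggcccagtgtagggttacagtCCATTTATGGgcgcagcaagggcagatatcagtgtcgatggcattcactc
Between CC and GG each box holds only A and T. A match is a description of letters in this window and not a bound site.

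Some sarcomere genes of the embryonic and regenerating fibre were higher after reloading. Of 15 tested genes in the list, 9 rose (60% against 27.8% of all genes) and 0 fell (median 0.57), and 8 rose without reloaded mice 2 and 4. Mybph, 1 of the 9, is also counted among the Z-disc genes. Those that rose include Actn1, Tpm4, Tagln, Nes and Ncam1, which are not confined to sarcomeres. Of its sarcomere genes Myh3, Actc1, Myl6b and Mybph rose, and Myh8, Myl4, Tnnt2 and Igfn1 were not called. Embryonic myosin heavy chain, encoded by Myh3 (mm10 chromosome 11, 67078300 to 67102292), ran from 26.2 to 102 CPM (median 63.6) in unloaded mice and was at 344, 505, 475 and 699 CPM in reloaded mice (2.95 ± 0.49, adjusted p = 6.55e-06), with no overlap. Myh8, the perinatal heavy chain, overlapped between the groups, with 11.3 to 37.3 CPM (median 18.8) in unloaded and 20.5, 26.03, 16.3 and 34.3 CPM in reloaded mice (0.20 ± 0.54, adjusted p = 0.786). Thus 1 of the 2 developmental heavy chains was called. Myl6b went from 5.72 to 10.8 CPM (median 8.78) to 105, 65.6, 78.2 and 119.7 CPM (3.40 ± 0.36, adjusted p = 2.07e-09), and Mybph from 3.25 to 7.67 CPM (median 4.50) to 143, 37.9, 45.5 and 62.1 CPM (3.88 ± 0.58, adjusted p = 1.16e-06). Every reloaded mouse was above every unloaded mouse in both. The intermediate filament gene Nes, a mark of regenerating fibres and satellite cells, rose by 1.47 ± 0.16, the tropomyosin gene Tpm4 by 1.10 ± 0.14 and the alpha-actinin gene Actn1 by 0.57 ± 0.10. The smooth muscle actin gene Acta2 had a value of 0.32 ± 0.14, adjusted p = 0.057 (called, at 0.00913, with only the 2 groups compared in the fit), the light chain gene Myl4 one of -0.02 ± 0.26, adjusted p = 0.96 and the cardiac troponin T gene Tnnt2 one of -0.13 ± 0.24, adjusted p = 0.685.

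Among the adult myosin heavy chains, which define fibre types and share long stretches of sequence, IIa and IIx moved in opposite directions. Myh2, the IIa chain of fast oxidative fibres (mm10 chromosome 11, 67171027 to 67197518), ran from 2418 to 10096 CPM (median 6993) in unloaded mice and was at 16161, 15986, 14918 and 16516 CPM in reloaded mice (1.36 ± 0.24, adjusted p = 1.48e-05). Myh1, the IIx chain (mm10 chromosome 11, 67200114 to 67224576), ran from 14076 to 32266 CPM (median 20635) and was at 7595, 7163, 5748 and 2955 CPM (-1.89 ± 0.43, adjusted p = 0.000389). The reloaded mice lay above all unloaded mice for Myh2 and below all of them for Myh1, and old controls had 9511 to 14720.5 CPM of Myh2 and 727 to 8612 CPM of Myh1. Myh4, the IIb chain, went from 213 to 3262 CPM (median 767) to 106, 38.2, 56.9 and 52.5 CPM (-4.14 ± 1.22, adjusted p = 0.00488), a call lost without reloaded mice 2 and 4 (adjusted p = 0.0646). The slow chain Myh7 had 11783 to 17040.1 CPM (median 13462) in unloaded and 15404, 18368, 14427 and 18698 CPM in reloaded mice, and its change of 0.27 ± 0.15, adjusted p = 0.131 did not pass the test. Levels of Myh1 and Myh2 varied several-fold among the unloaded mice alone, with mice 3, 5 and 6 highest in Myh1.

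**Figure D2:**
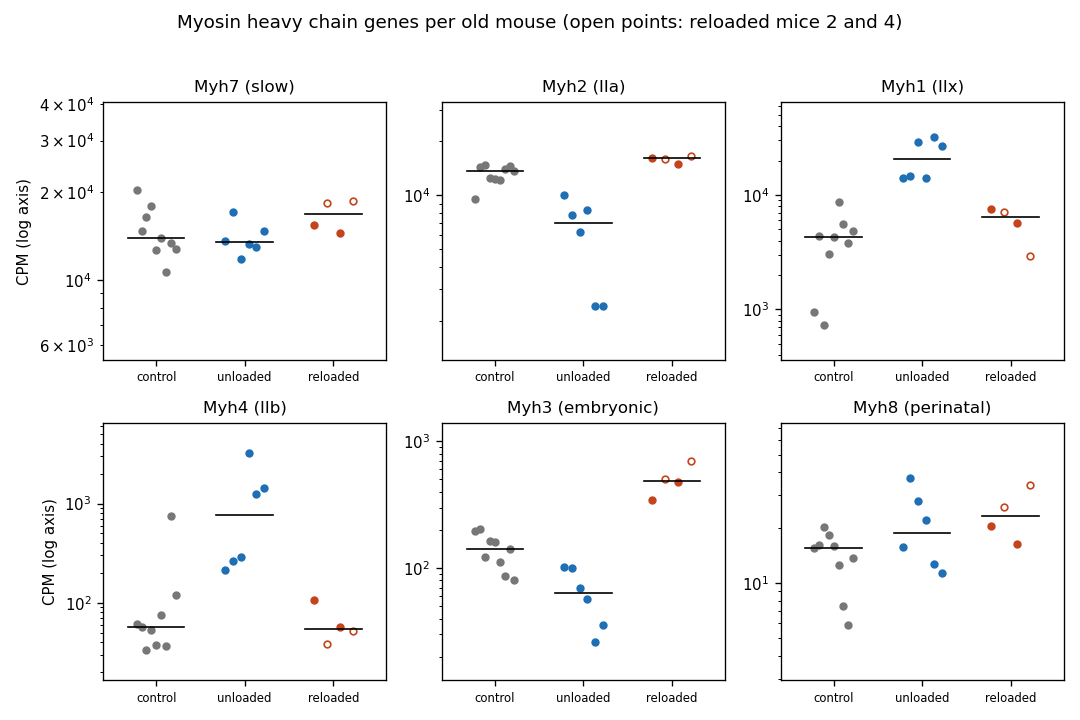
Level in CPM (log axis) of the heavy chain genes Myh7 (slow), Myh2 (IIa), Myh1 (IIx), Myh4 (IIb), Myh3 (embryonic) and Myh8 (perinatal) in each old control, unloaded and reloaded mouse; points are mice and bars are group medians. Reloaded mice were higher in Myh2 and Myh3 and lower in Myh1 and Myh4, while Myh7 and Myh8 overlapped.

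The wider lists of fibre-type genes did not move as blocks. Of 16 slow-fibre genes 6 rose and 4 fell (37.5% and 25%, against 27.8% and 23.5% of all genes). The 6 include Ankrd2 and Csrp3, which are also counted among the Z-disc genes. Casq2, the slow and cardiac calsequestrin that stores calcium, rose from 115 to 194 CPM (median 154) to 531, 671, 636 and 868 CPM (2.12 ± 0.14, adjusted p = 8.11e-14), and the slow troponin and light chain genes Tnni1 (1.25 ± 0.16) and Myl2 (1.23 ± 0.18) rose too. In contrast the myoglobin gene Mb fell by 0.92 ± 0.12 (1.27e-07 adjusted p) from 4435 to 4711 CPM (median 4499) to 1718, 2614, 2686 and 2579.8 CPM, and the slow calcium pump gene Atp2a2 by 0.68 ± 0.14. Of 17 fast-fibre genes 9 fell and 4 rose (52.9% and 23.5%, against 23.5% and 27.8% of all genes). Mylk2, the kinase of the fast regulatory light chain, fell from 344 to 587 CPM (median 492) to 67.6, 90.7, 68.9 and 73.9 CPM (-2.69 ± 0.21, adjusted p = 6.35e-12), and the fast calcium pump gene Atp2a1 fell by 1.43 ± 0.22. The 4 that rose were Myh2, the fast calsequestrin gene Casq1 (1.12 ± 0.10) and the fast light chain genes Myl1 (1.37 ± 0.13) and Mylpf (1.12 ± 0.11). Among general fibre genes the skeletal actin gene Acta1 rose from 10427 to 12742 CPM (median 11547) to 27064, 22408, 21552 and 25161 CPM (1.04 ± 0.08, adjusted p = 7.39e-12), and Ttn, the giant titin gene that alone took 21.9% to 26.4% of the reads of these 10 libraries, rose by 0.25 ± 0.07, a call lost without reloaded mice 2 and 4 (adjusted p = 0.149).

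Genes of fibre breakdown fell. Of 28 ubiquitin ligases of atrophy and targets of FoxO transcription factors, 21 fell (75% against 23.5% of all genes) and 2 rose, with a median of -0.76 (19 fell without reloaded mice 2 and 4). Their summed level was 3973 to 5466 CPM in unloaded mice, 2409 to 2729.7 CPM in reloaded mice and 3472 to 4507 CPM in old controls, so the reloaded mice lay below both. Fbxo32, which encodes the muscle ubiquitin ligase atrogin-1 (mm10 chromosome 15, 58175879 to 58214893), ran from 804 to 1216 CPM (median 835) in unloaded mice and was at 176, 284, 212 and 186 CPM in reloaded mice (-2.11 ± 0.17, adjusted p = 1.38e-11). Trim63, for the ligase MuRF1 (mm10 chromosome 4, 134315120 to 134329630), ran from 114 to 281 CPM (median 182) and was at 61.9, 73.5, 57.3 and 56.4 CPM (-1.57 ± 0.26, adjusted p = 5.49e-06). Neither overlapped between the groups, and for Fbxo32 the reloaded mice were also below every old control (502 to 933 CPM). Fbxo31, an F-box subunit of a ligase of cell cycle proteins, went from 129 to 214 CPM (median 152) to 54.9, 56.2, 45.05 and 40.7 CPM (-1.72 ± 0.17, adjusted p = 2.86e-10). Falls were also measured for Asb2, a ligase subunit that limits muscle mass (-1.15 ± 0.14), the transcription factor gene Foxo4 (-0.85 ± 0.11), the glucocorticoid target Klf15 (-1.29 ± 0.18) and the signalling ligase gene Traf6 (-0.34 ± 0.05), the last not called with the most abundant transcript in place of the sum (adjusted p = 0.708).

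Not every ligase fell. Fbxo40, a muscle ligase of insulin receptor substrate 1, went from 153 to 221 CPM (median 191) to 354, 328, 299 and 384 CPM (0.85 ± 0.11, adjusted p = 7.4e-08), with no overlap. Stub1, which encodes CHIP, the ligase that works with Hsp70, rose by 0.53 ± 0.05. The p53 target Cdkn1a had a value of -0.27 ± 0.42, adjusted p = 0.621, while the ligase gene Mdm2 had one of -0.15 ± 0.11, adjusted p = 0.229. The proteasome itself moved both ways: of 32 subunit genes 9 rose and 8 fell (median -0.04), close to the share of all genes. Psmd11, a lid subunit of the 26S particle, rose by 0.58 ± 0.08 and the alternative activator gene Psme4 fell by 0.63 ± 0.07.

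Autophagy genes followed the ligases. Of 24 tested, 16 fell and 3 rose (66.7% and 12.5%, against 23.5% and 27.8% of all genes). The median was -0.40, and 15 fell without reloaded mice 2 and 4. Their summed level was 3256 to 3566 CPM in unloaded and 1987 to 2208 CPM in reloaded mice. Map1lc3b, for the protein LC3B of the autophagosome membrane, went from 127 to 190.3 CPM (median 138) to 70.8, 68.02, 61.7 and 59.01 CPM (-1.20 ± 0.10, adjusted p = 1.08e-11). Pink1, the kinase gene that flags damaged mitochondria, went from 1108 to 1248 CPM (median 1209) to 508, 689.9, 549 and 643 CPM (-0.99 ± 0.08, adjusted p = 2.04e-11). In both, all reloaded mice were under all unloaded mice. The mitophagy receptor gene Bnip3l (-0.80 ± 0.07), the cargo receptor genes Sqstm1 (-0.88 ± 0.10) and Calcoco1 (-1.07 ± 0.14) and Tfeb, a master regulator of lysosome genes (-0.97 ± 0.12), fell as well. The conjugation factor gene Atg5 (0.41 ± 0.06), Wipi1 (0.36 ± 0.08) and the LC3 relative Gabarapl2 (0.28 ± 0.07) rose, and Becn1 had a value of -0.01 ± 0.04, adjusted p = 0.877. Lysosome genes were divided, with 10 of 26 higher and 7 lower (38.5% and 26.9%, against 27.8% and 23.5% of all genes). Ctsl, the cathepsin raised in wasting muscle, went from 192 to 274 CPM (median 204) to 79.03, 98.9, 83.6 and 69.4 CPM (-1.38 ± 0.15, adjusted p = 3.7e-09), whereas Ctsz, a cathepsin of macrophages among other cells, went from 14.5 to 19.4 CPM (median 16.9) to 35.6, 26.7, 32.8 and 27.96 CPM (0.87 ± 0.08, adjusted p = 2.53e-10).

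Chaperones of stressed and stretched fibres rose. Of 11 genes of small heat shock proteins and their partners, 9 rose and 0 fell (median 0.86), and 7 rose without reloaded mice 2 and 4. The 9 include Cryab and Bag3, which are also counted among the Z-disc genes. Hspb1, which encodes the actin-protecting small heat shock protein of stressed fibres (mm10 chromosome 5, 135887919 to 135889564), ran from 58.1 to 173 CPM (median 118) in unloaded mice and was at 892, 676, 619 and 721 CPM in reloaded mice (2.62 ± 0.24, adjusted p = 9.63e-11). Every reloaded mouse exceeded every unloaded mouse and every old control (108 to 228 CPM). Hspb7 went from 461 to 872 CPM (median 802) to 2262, 1943, 1906 and 2118 CPM (1.52 ± 0.15, adjusted p = 5.33e-10), and Cryab, which encodes alpha-B crystallin, from 280.0 to 1095 CPM (median 628) to 2655, 2684, 2389.8 and 2460.4 CPM (2.03 ± 0.21, adjusted p = 1.01e-09). The co-chaperone gene Bag2 (1.47 ± 0.15) and the muscle forms Hspb2 (0.81 ± 0.10) and Hspb3 (1.03 ± 0.15) also rose, while Bag1 had a value of 0.08 ± 0.08, adjusted p = 0.413 and Hspb11 one of -0.04 ± 0.16, adjusted p = 0.865. For Hspb6, the call was lost without reloaded mice 2 and 4 (adjusted p = 0.0122, then 0.0924).

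Of 43 genes of the Hsp70, Hsp90, chaperonin and DnaJ families, 28 rose (65.1%) and 5 fell. Hsp90aa1, the inducible cytosolic Hsp90 (mm10 chromosome 12, 110691036 to 110696396), went from 55.2 to 71.8 CPM (median 62.2) to 207, 198, 224 and 238 CPM (1.76 ± 0.22, adjusted p = 3.84e-08). Its constitutive twin Hsp90ab1 had 794 to 940.5 CPM (median 874) in unloaded and 835, 823, 816 and 869.8 CPM in reloaded mice (-0.07 ± 0.09, adjusted p = 0.54). The inducible form was thus called and the constitutive form was not. Hsph1, which encodes an Hsp110 nucleotide exchange factor, went from 17.5 to 31.2 CPM (median 24.2) to 63.2, 81.2, 73.99 and 89.2 CPM (1.72 ± 0.20, adjusted p = 1.48e-08). Stip1, which passes clients from Hsp70 to Hsp90, rose by 1.16 ± 0.11, the exchange factor gene Hspa4 by 0.64 ± 0.07, the chaperonin subunit gene Cct8 by 0.68 ± 0.08 and Smyd1, a myosin-folding partner of Hsp90, by 0.87 ± 0.08. The inducible Hsp70 genes Hspa1b (1.55 ± 0.35) and Hspa1a (1.26 ± 0.31) rose too, but they are near-identical copies whose reads may be split between them. Dnaja2 (-0.64 ± 0.05), the mitochondrial Hsp90 gene Trap1 (-0.37 ± 0.05), the kinase co-chaperone gene Cdc37 (-0.37 ± 0.05), Dnajb6 (-0.29 ± 0.06) and Hspa2 (-0.33 ± 0.14; adjusted p = 0.176 without reloaded mice 2 and 4) fell. Hsf1, the transcription factor of the heat shock response, had a value of 0.18 ± 0.10, adjusted p = 0.142 (0.0439 with its most abundant transcript alone).

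Heat shock factor binds inverted GAA repeats, so promoters were searched for GAANNTTC, which reads the same on both strands. It was found in 5 of 9 small heat shock genes with a RefSeq promoter, all 5 among the 7 of them that rose, and in 11 of 35 of the other chaperone genes (8 of 23 that rose, 1 of 5 that fell and 2 of 7 not called). Among all tested genes 7.06% of 11424 promoters held it. These are parts of the promoters of 5 genes that rose, from RefSeq on GRCm38.p6, 5′ to 3′ on the strand of the gene with the element in capitals, at chr5:135887762-135887869 (plus strand), chr7:30553141-30553228 (plus strand), chr17:34959295-34959382 (minus strand), chr5:149636266-149636335 (minus strand) and chr9:18292223-18292316 (plus strand):
Hspb1: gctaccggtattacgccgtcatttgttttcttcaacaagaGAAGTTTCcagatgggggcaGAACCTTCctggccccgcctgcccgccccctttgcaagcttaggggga
Hspb6: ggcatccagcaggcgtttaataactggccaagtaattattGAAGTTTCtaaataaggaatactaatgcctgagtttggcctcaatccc
Hspa1b: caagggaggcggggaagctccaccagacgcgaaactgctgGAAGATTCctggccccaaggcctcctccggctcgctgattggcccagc
Hsph1: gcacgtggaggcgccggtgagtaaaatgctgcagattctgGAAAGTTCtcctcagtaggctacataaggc
Chordc1: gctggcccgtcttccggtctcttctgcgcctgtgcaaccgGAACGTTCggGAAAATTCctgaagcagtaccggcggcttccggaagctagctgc
Hspb1 and Chordc1, which encodes an Hsp90 partner (0.82 ± 0.11), each hold a pair of elements close together. The Hspa1b stretch is shared letter for letter by Hspa1a. A match describes letters in this window and not a bound site.

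Chaperones of the secretory pathway rose too. Of 25 genes of endoplasmic reticulum chaperones and the unfolded protein response, 15 rose and 2 fell. The disulphide isomerase gene Pdia6 went from 24.01 to 30.5 CPM (median 29.1) to 55.97, 46.4, 62.1 and 59.4 CPM (1.01 ± 0.12, adjusted p = 3.14e-08), Pdia3 rose by 0.75 ± 0.10 and the lectin chaperone gene Calr by 0.68 ± 0.10. Herpud1, a stress-induced part of the degradation machinery of that compartment, instead fell from 88.9 to 102 CPM (median 97.01) to 51.5, 56.1, 48.2 and 49.04 CPM (-0.91 ± 0.08, adjusted p = 4.53e-11), and the sensor gene Ern1 fell by 0.46 ± 0.13. Chaperone genes and these 2 genes of the same stress pathway thus moved in opposite directions. The integrated stress response list was near the share of all genes, with 7 of 24 up and 5 down (29.2% and 20.8%, against 27.8% and 23.5%). Without reloaded mice 2 and 4 the counts were 4 and 5. The 1-carbon and serine enzyme genes Mthfd2 (1.48 ± 0.20) and Psat1 (1.09 ± 0.27) and the proline enzyme genes Aldh18a1 (0.96 ± 0.16) and Pycr1 (0.64 ± 0.14) rose. Chac1, the cystine transporter gene Slc7a11 (-2.04 ± 0.56) and the lipoprotein receptor gene Vldlr (-0.86 ± 0.07) fell, and Atf4, the transcription factor of this response, had a value of 0.02 ± 0.11, adjusted p = 0.878. The amino acid response element TGATGNAAT was in 2 of 23 promoters of the list, that of Pycr1 and that of Nupr1 (-0.17 ± 0.17, adjusted p = 0.414); the window of Chac1 did not hold these letters, and 0.551% of the promoters of all tested genes did.

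Genes of the extracellular matrix rose. Of 36 collagen genes 18 rose and 5 fell (median 0.58; 19 and 4 without reloaded mice 2 and 4). Col3a1, the collagen of early repair matrix (mm10 chromosome 1, 45311538 to 45349707), ran from 65.1 to 109 CPM (median 82.9) in unloaded mice and was at 1449, 229, 1220.0 and 682 CPM in reloaded mice (3.37 ± 0.32, adjusted p = 2.51e-10). Col1a1, of the main fibrillar collagen (mm10 chromosome 11, 94936224 to 94953043), ran from 19.1 to 33.99 CPM (median 25.2) and was at 378, 71.7, 279 and 145 CPM (3.12 ± 0.31, adjusted p = 7.67e-10). The groups did not overlap, yet the highest reloaded mouse had several times the level of mouse 2, the mouse richest in liver transcripts. In this muscle more matrix RNA per cell and more cells that make matrix cannot be told apart, and the same holds for every group of genes below that comes from a cell other than the fibre. The microfibrillar collagen genes Col6a3 (1.76 ± 0.16) and Col6a2 (1.51 ± 0.14), the fibril-organising gene Col5a1 (2.03 ± 0.21) and Col16a1 (1.49 ± 0.17) rose. Col4a3, a chain of specialised basement membranes, fell from 4.17 to 5.57 CPM (median 5.32) to 2.04, 2.37, 2.28 and 3.18 CPM (-1.06 ± 0.19, adjusted p = 2.32e-05) and its partner Col4a4 fell by 0.60 ± 0.18. Col6a6 (-1.19 ± 0.30), Col28a1 (-0.72 ± 0.24) and Col19a1 (-1.61 ± 0.47) were the other 3 that fell, and the last 2 were not called without mice 2 and 4 (adjusted p = 0.0913 and 0.129).

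The enzymes that fold, trim and cross-link collagen rose nearly throughout, with 21 of 27 called higher (77.8%) and 1 lower. Without reloaded mice 2 and 4, 22 were higher and 0 lower. Loxl1, a lysyl oxidase of elastic fibres, went from 8.56 to 11.7 CPM (median 9.94) to 44.4, 18.9, 35.3 and 24.8 CPM (1.61 ± 0.15, adjusted p = 1.29e-10). The lysyl hydroxylase gene Plod3 (0.94 ± 0.10), the procollagen trimming enhancer gene Pcolce (1.39 ± 0.15), the collagen chaperone gene Serpinh1 (1.57 ± 0.18), Loxl2 (1.36 ± 0.15) and the prolyl hydroxylase gene P4ha1 (0.98 ± 0.12) also rose. Matricellular and wound matrix genes gave 17 rises and 1 fall in 36 (19 and 2 without reloaded mice 2 and 4). Postn (mm10 chromosome 3, 54361107 to 54391042) went from 10.04 to 52.7 CPM (median 30.7) to 616, 82.5, 563 and 288 CPM (3.69 ± 0.40, adjusted p = 3.92e-09), and the fibronectin gene Fn1 from 78.4 to 157 CPM (median 137) to 573, 229, 532 and 412 CPM (1.78 ± 0.18, adjusted p = 9.98e-10). Reloaded mouse 2 was again the lowest and mice 1 and 3 the highest in both. The proteoglycan genes Bgn (1.85 ± 0.17) and Vcan (2.35 ± 0.27) and the fibrillin gene Fbn1 (1.84 ± 0.21) rose, while Dcn, for the small proteoglycan decorin of quiescent fibroblasts, fell from 328 to 469.5 CPM (median 383) to 186, 209, 285 and 286 CPM (-0.68 ± 0.14, adjusted p = 0.000136). The load-responsive genes Ctgf (-0.29 ± 0.29, adjusted p = 0.434) and Cyr61 (-0.35 ± 0.23, adjusted p = 0.209; 0.0294 without reloaded mouse 1) did not pass the test.

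Matrix proteases and their inhibitors were mixed, with 11 of 29 higher and 2 lower (37.9% and 6.9%, against 27.8% and 23.5% of all genes). Adam12, a protease of regenerating muscle, rose by 3.48 ± 0.44, and the inhibitor gene Timp1 by 3.40 ± 0.47. Timp3, an inhibitor bound to the matrix, fell from 165 to 218 CPM (median 199) to 95.04, 126, 90.2 and 102 CPM (-0.91 ± 0.12, adjusted p = 9.18e-08), and Timp4 fell by 0.85 ± 0.25. Of 28 integrin and laminin genes 15 rose and 6 fell: Itga9, a receptor for tenascin C, went from 13.3 to 23.6 CPM (median 18.9) to 53.5, 61.6, 53.7 and 61.3 CPM (1.59 ± 0.15, adjusted p = 3.63e-10), the fibronectin receptor gene Itga5 rose by 1.43 ± 0.16 and the muscle laminin receptor gene Itga7 by 0.82 ± 0.10, while Itgb5 fell by 0.53 ± 0.08. The cytoskeleton that attaches to them moved with them: of 38 genes of nonmuscle actomyosin and focal adhesions 32 rose (84.2%) and 2 fell (34 and 1 without reloaded mice 2 and 4). The nonmuscle myosin heavy chain gene Myh10 went from 106 to 232 CPM (median 156) to 491, 486, 497 and 537 CPM (1.62 ± 0.17, adjusted p = 2e-09), the light chain gene Myl6 rose by 1.07 ± 0.07, and the adhesion plaque genes Vcl (0.85 ± 0.08) and Tln1 (0.62 ± 0.06) rose. Myh14, the third nonmuscle heavy chain, fell from 247 to 309 CPM (median 267) to 108, 113, 117 and 127 CPM (-1.24 ± 0.10, adjusted p = 6.35e-12), and the adaptor gene Pxn fell by 0.34 ± 0.12 (adjusted p = 0.118 without reloaded mice 2 and 4).

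**Figure D3:**
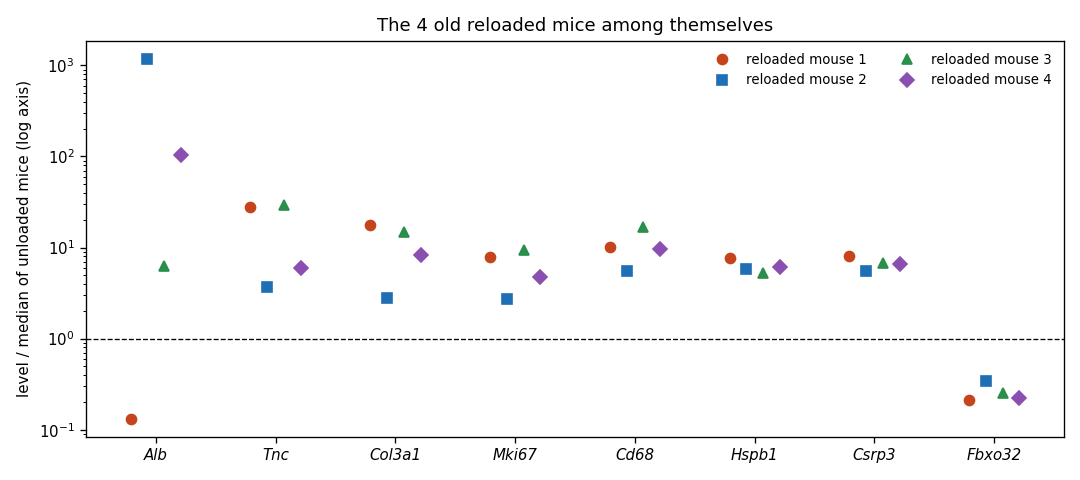
Level of 8 genes in reloaded mice 1 to 4, each divided by the median of the 6 unloaded mice (log axis). Alb is shown beside Tnc, Col3a1, Mki67, Cd68, Hspb1, Csrp3 and Fbxo32. Mouse 2 was the highest in Alb and the lowest in Tnc, Col3a1, Mki67 and Cd68, while Hspb1, Csrp3 and Fbxo32 differed little among the 4 mice.

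Many macrophage genes rose, and Cd68 changed most among those called with and without reloaded mice 2 and 4. Of 34 genes of recruited and phagocytic macrophages 20 rose (58.8%) and 2 fell (median 0.78), with 22 and 2 without reloaded mice 2 and 4. Their summed level did not rise, with 877 to 1051 CPM in unloaded and 875 to 987 CPM in reloaded mice. That sum includes Cd36, which fell and is not confined to macrophages, so it does not measure macrophage RNA alone. Cd68, a lysosomal protein of phagocytes (mm10 chromosome 11, 69664213 to 69666171), ran from 2.62 to 4.16 CPM (median 3.81) in unloaded mice and was at 38.6, 20.8, 64.5 and 36.8 CPM in reloaded mice (3.49 ± 0.29, adjusted p = 1.9e-11). The other leading genes rose less: the actin-capping gene Capg changed by 0.85 ± 0.14, the chemokine receptor gene Ccr2 of incoming monocytes by 1.44 ± 0.33, the scavenger receptor gene Msr1 by 1.30 ± 0.31 and the Fc receptor gene Fcer1g by 0.77 ± 0.19. Arg1, an enzyme of both alternatively activated macrophages and liver, was at 0.195, 23.7, 0.393 and 1.85 CPM in the 4 reloaded mice, and its change of 5.26 ± 0.91, adjusted p = 1.22e-05 became 0.79 (adjusted p = 0.542) without mice 2 and 4. Gpnmb, a glycoprotein of lipid-laden phagocytes, fell from 9.91 to 15.5 CPM (median 11.5) to 5.47, 6.08, 4.58 and 6.91 CPM (-1.06 ± 0.23, adjusted p = 0.000271). The lipid receptor gene Cd36, which fibres and capillaries express as well, fell by 0.49 ± 0.12. Spp1, for osteopontin, had a value of 0.93 ± 0.44, adjusted p = 0.0745, but was called higher without reloaded mice 2 and 4 (1.30, adjusted p = 0.0378) and again with no library over 20 CPM of Alb in the fit (adjusted p = 0.0361). For the galectin gene Lgals3 the value was 0.18 ± 0.36, adjusted p = 0.707 and the receptor gene Csf1r one of 0.23 ± 0.16, adjusted p = 0.238.

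Genes of resident macrophages did not exceed the share of all genes: 5 of 18 rose and 3 fell (27.8% and 16.7%, against 27.8% and 23.5%). The complement receptor gene Vsig4 (1.44 ± 0.32), the folate receptor gene Folr2 (0.86 ± 0.22), the scavenger receptor gene Stab1 (0.79 ± 0.14) and the mannose receptor gene Mrc1 (0.70 ± 0.22; adjusted p = 0.0702 without reloaded mouse 1) rose. The lineage transcription factor gene Maf (-0.70 ± 0.12) fell. Cd163, the haemoglobin scavenger receptor, had 20.3 to 28.8 CPM (median 25.02) in unloaded and 26.8, 17.2, 21.3 and 16.99 CPM in reloaded mice (-0.27 ± 0.17, adjusted p = 0.185), with overlap between the groups. Of 25 chemokine and receptor genes 11 rose and 1 fell (12 and 3 without reloaded mice 2 and 4). Cxcl12, a chemokine of stromal cells, went from 62.7 to 95.1 CPM (median 65.6) to 99.9, 120.4, 125 and 121 CPM (0.72 ± 0.11, adjusted p = 1.51e-06), Cxcl14 rose by 1.03 ± 0.20 and the fractalkine receptor gene Cx3cr1 by 1.45 ± 0.30, whereas the eotaxin gene Ccl11 fell by 0.59 ± 0.14.

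Complement genes counted 13 rises and 3 falls in 22, but some rested on the liver transcripts. C3, the central component, was at 101, 350.3, 57.8 and 71.01 CPM in reloaded mice, highest in mouse 2, and its change of 1.23 ± 0.29, adjusted p = 0.000588 became 0.35 (adjusted p = 0.221) without mice 2 and 4. Cfi (5.72 ± 1.05, then -0.86) and C6 (2.79 ± 0.64, then 0.50) behaved in the same way. Cfb (1.62 ± 0.21, then 1.23), Cfp (0.99 ± 0.21, then 1.24) and C1s1 (0.54 ± 0.11, then 0.52) had values of like size in both fits. Interferon-stimulated genes were higher at low absolute levels: 16 of 30 rose and 0 fell (median 0.66). Without reloaded mice 2 and 4, 7 rose (median 0.59), near the 22.3% of all genes called higher in that fit. Without every library above 20 CPM of Alb, 5 rose. Their summed level was 173 to 275 CPM in unloaded, 285 to 412 CPM in reloaded and 154 to 437 CPM in old control mice. Isg15, a ubiquitin-like modifier (mm10 chromosome 4, 156199424 to 156200819), ran from 0.304 to 1.35 CPM (median 0.929) in unloaded mice and was at 2.43, 1.87, 2.75 and 4.35 CPM in reloaded mice (1.63 ± 0.42, adjusted p = 0.00139), with no overlap. Ifi35 rose by 0.56 ± 0.08, the RNA sensor gene Ddx58 by 0.73 ± 0.15, Oas1a by 1.76 ± 0.39 and Irf9, a subunit of the interferon-activated factor, by 0.59 ± 0.16. Irf7 (0.85 ± 0.45, adjusted p = 0.116; 0.0278 with only the 2 groups compared in the fit) and Rsad2 (-0.09 ± 0.36, adjusted p = 0.86) did not pass the test. Neutrophil genes (0 of 7 called by edgeR and DESeq2, 0 at an unadjusted p under 0.05) and lymphocyte genes (0 of 5 by both tools, 1 unadjusted) were low in both groups, summing to 10.03 to 13.5 CPM and 1.71 to 2.31 CPM in unloaded and 9.20 to 16.7 CPM and 1.97 to 2.79 CPM in reloaded mice.

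Genes of dividing cells were among the sharpest rises relative to their level. Of 32 mitosis genes 26 rose (81.2%) and 1, the checkpoint gene Bub1b (-0.70 ± 0.24; adjusted p = 0.455 without reloaded mice 2 and 4), fell; the median was 1.45, and 1.93 without reloaded mice 2 and 4. Mki67, the proliferation marker (mm10 chromosome 7, 135689788 to 135716380), ran from 1.13 to 4.27 CPM (median 2.05) in unloaded mice and was at 16.1, 5.53, 19.5 and 9.61 CPM in reloaded mice (2.45 ± 0.45, adjusted p = 2.73e-05). Top2a, for the topoisomerase that untangles chromosomes, ran from 0.366 to 1.37 CPM (median 0.858) and was at 8.59, 2.31, 10.2 and 4.79 CPM (2.89 ± 0.49, adjusted p = 9e-06). All reloaded mice were above all unloaded mice, with mouse 2 lowest and mouse 3 highest in both genes. The kinesin genes Kif23 (2.04 ± 0.34), Kif11 (1.35 ± 0.23) and Kif20a (1.72 ± 0.32) and the mitotic kinase gene Aurkb (2.34 ± 0.41) rose. Replication genes were less uniform, 15 of 40 higher and 6 lower (37.5% and 15%, against 27.8% and 23.5% of all genes). The helicase subunit gene Mcm6 went from 6.18 to 10.2 CPM (median 9.41) to 40.2, 36, 38.8 and 33.2 CPM (2.12 ± 0.14, adjusted p = 6.56e-14), with Mcm5 at 1.05 ± 0.21 and Mcm2 at 0.92 ± 0.15. Pole, the catalytic subunit gene of the leading-strand polymerase, went the other way, from 16.3 to 26.2 CPM (median 17.8) to 5.88, 6.43, 7.84 and 5.65 CPM (-1.64 ± 0.13, adjusted p = 6.94e-12), and old controls were at 6.16 to 9.26 CPM. The single-strand-binding gene Rpa1 fell by 0.76 ± 0.06. Of 22 inhibitors of the cycle and p53 targets 8 rose and 4 fell (36.4% and 18.2%, against the same 27.8% and 23.5%). Zmat3, an RNA-binding target of p53, went from 11.3 to 13.9 CPM (median 12.5) to 29.1, 26.7, 27.3 and 31.4 CPM (1.18 ± 0.13, adjusted p = 2.39e-09), Bax rose by 0.85 ± 0.14, Trp53inp1 fell from 66.4 to 122 CPM (median 79.4) to 20.9, 30.4, 18.8 and 22.99 CPM (-1.87 ± 0.22, adjusted p = 2.33e-08) and the inhibitor gene Cdkn1b fell by 0.57 ± 0.08.

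Of the satellite cell genes, Pax7, the defining factor of that cell, had 1.48 to 2.24 CPM (median 1.83) in unloaded and 1.92, 2.54, 1.74 and 2.88 CPM in reloaded mice (0.27 ± 0.22, adjusted p = 0.311). Myf5 fell from 2.03 to 3.19 CPM (median 2.61) to 1.23, 2.11, 1.63 and 2.03 CPM (-0.58 ± 0.18, adjusted p = 0.00816). Both genes were low in all 10 mice. The differentiation factor gene Myog went from 3.69 to 9.94 CPM (median 6.97) to 44.2, 13.6, 18.1 and 13.9 CPM (1.70 ± 0.52, adjusted p = 0.00718) and Myod1 from 1.94 to 4.98 CPM (median 2.98) to 10.1, 4.15, 5.54 and 5.03 CPM (0.96 ± 0.31, adjusted p = 0.0103). Myog did not overlap between the groups, and reloaded mouse 1 stood highest. Without that mouse the calls of Myog (adjusted p = 0.0931), Myod1 (0.125) and Myf5 (0.0518) were lost. Over the whole list of 26 myogenic genes 7 rose and 4 fell, near the share of all genes. At the neuromuscular junction Chrnb1, the beta subunit gene of the acetylcholine receptor, went from 17 to 29.01 CPM (median 21.2) to 51.95, 50.8, 59.5 and 58.2 CPM (1.32 ± 0.19, adjusted p = 3.95e-07), whereas the adult epsilon subunit gene Chrne fell from 6.08 to 8.25 CPM (median 7.46) to 2.68, 4.39, 5.06 and 4.53 CPM (-0.81 ± 0.15, adjusted p = 2.99e-05). The embryonic gamma subunit gene Chrng had a value of 0.34 ± 0.84, adjusted p = 0.766, while the adhesion gene Ncam1 of denervated fibres rose by 0.89 ± 0.22. Of 20 junction genes 3 rose and 4 fell (15% and 20%, below the 27.8% and 23.5% of all genes).

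Cytosolic ribosomal protein genes rose by small, uniform steps. Of 80, many of which have near-identical copies, 60 rose (75%) with a median of 0.33, and 64 rose without reloaded mice 2 and 4. Rps28 went from 68.5 to 89.4 CPM (median 75.4) to 162, 127, 143 and 149.8 CPM (0.90 ± 0.09, adjusted p = 4.11e-10) and Rps12 from 146 to 190.5 CPM (median 164) to 329.7, 259, 312 and 289 CPM (0.82 ± 0.10, adjusted p = 1.66e-08). The 1 gene that fell was Rpl3l, the striated-muscle form of Rpl3, from 136 to 202 CPM (median 159) to 56.2, 111, 66.9 and 78.8 CPM (-1.07 ± 0.14, adjusted p = 1.45e-07). Rpl3l was lowest in reloaded mice 1 and 3. Factors that assemble ribosomes did not share the rise, with 7 of 39 higher and 9 lower (17.9% and 23.1%, against 27.8% and 23.5% of all genes). The methyltransferase gene Fbl rose by 0.57 ± 0.09 and Wdr43 fell by 0.63 ± 0.09. Of 46 translation factors and tRNA synthetases 14 rose and 14 fell (30.4% each, against 27.8% and 23.5% of all genes). Aimp2, a scaffold of the synthetase complex, went from 15.5 to 18.9 CPM (median 16.9) to 35.03, 34.8, 37.9 and 38.1 CPM (1.10 ± 0.08, adjusted p = 7.42e-13), Eef1g rose by 0.67 ± 0.06, and the muscle elongation factor gene Eef1a2 fell by 0.64 ± 0.09.

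Fuel genes fell, most widely those of fatty acids. Of 35 genes of fatty acid uptake and oxidation 27 fell (77.1% against 23.5% of all genes) and 3 rose (27 and 1 without reloaded mice 2 and 4). Slc27a1, a fatty acid transporter (mm10 chromosome 8, 71568927 to 71586709), went from 95.3 to 138 CPM (median 112) to 29.7, 53.05, 26.3 and 36.8 CPM (-1.64 ± 0.20, adjusted p = 2.85e-08). Lpl, the lipase that frees fatty acids from lipoproteins, went from 1438 to 1884 CPM (median 1641) to 713, 923, 558 and 744 CPM (-1.16 ± 0.14, adjusted p = 2.09e-08), and the medium-chain dehydrogenase gene Acadm from 281 to 387 CPM (median 318) to 147, 222, 157 and 194 CPM (-0.85 ± 0.13, adjusted p = 2.71e-06). No reloaded mouse reached the unloaded range in these 3, and mouse 2 was the highest of the reloaded mice in each. The acyl-CoA synthetase gene Acsl5 (0.92 ± 0.13), Cpt1a (0.47 ± 0.14) and Fabp3 (0.81 ± 0.27) were the 3 that rose. The last 2 overlapped between the groups and were not called without mice 2 and 4 (adjusted p = 0.218 and 0.107).

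The citric acid cycle followed, with 20 of 32 lower and 5 higher. Idh2, the mitochondrial NADP-dependent isocitrate dehydrogenase, went from 693 to 1471 CPM (median 898) to 269, 567, 299.8 and 393 CPM (-1.32 ± 0.17, adjusted p = 1.26e-07), with succinyl-CoA ligase (Suclg2, -0.63 ± 0.07) and pyruvate dehydrogenase kinase (Pdk2, -1.03 ± 0.15) also lower. Subunits of the pyruvate dehydrogenase complex were split: Dlat rose by 0.57 ± 0.09 and Pdha1 fell by 0.51 ± 0.09. The respiratory chain changed less, with 29 of 80 subunits lower and 6 higher and a median of -0.12. Its shares were 36.2% and 7.5%, against 23.5% and 27.8% of all genes. Cox8b, the muscle form of a cytochrome oxidase subunit, fell by 0.85 ± 0.10 and the cytochrome c gene Cycs rose by 0.62 ± 0.11. Of 20 regulators of mitochondrial content 9 fell and 4 rose (45% and 20%), with a median of -0.10. Without reloaded mice 2 and 4, 6 fell and 3 rose. Ppargc1a, the coactivator of mitochondrial genes, had 42.01 to 55.4 CPM (median 50.4) in unloaded and 31.3, 41.3, 30.2 and 33.3 CPM in reloaded mice (-0.53 ± 0.44, adjusted p = 0.323). All reloaded mice lay below all unloaded mice, and the gene was called lower with only the 2 groups compared in the fit (adjusted p = 0.00102). Its relative Ppargc1b rose by 0.68 ± 0.18. The mitochondrial fusion gene Mfn2 went from 699.9 to 797 CPM (median 731) to 350.5, 424, 384 and 395 CPM (-0.93 ± 0.09, adjusted p = 9.73e-11), and Tfam, which packages mitochondrial DNA, rose by 0.37 ± 0.07.

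Of 18 glycogen genes 11 fell and 3 rose. The phosphorylase kinase subunit gene Phkg1 went from 66.3 to 97.1 CPM (median 70.7) to 21.2, 24.1, 17.2 and 19.5 CPM (-1.90 ± 0.17, adjusted p = 3.71e-11), the muscle phosphorylase gene Pygm fell by 1.23 ± 0.15 and the synthase gene Gys1 from 541 to 777 CPM (median 665) to 323, 334, 359.7 and 358 CPM (-0.94 ± 0.11, adjusted p = 1.65e-08). Enzymes that build and that break glycogen were thus both lower. Glycolysis counted 12 falls and 5 rises in 29 (41.4% and 17.2%, against 23.5% and 27.8% of all genes), with Pfkm at -0.67 ± 0.09 and Pgam1 at 0.88 ± 0.15. Lipogenic and sterol genes gave 16 rises and 5 falls in 26, but 10 and 8 without reloaded mice 2 and 4. Elovl6, a fatty acid elongase, was at 4.13, 19.3, 3.43 and 4.09 CPM in reloaded mice, so mouse 2 exceeded the others several-fold. The sterol enzyme genes Cyp51 (1.02 ± 0.16, then 0.84) and Sqle (1.51 ± 0.31, then 1.27) were called in both fits. Fdft1, squalene synthase, fell from 64.3 to 106 CPM (median 74.1) to 27.6, 32.7, 22.8 and 24.8 CPM (-1.58 ± 0.13, adjusted p = 1.84e-11). Of the ketone body genes the dehydrogenase gene Bdh1 rose by 1.21 ± 0.23 and Oxct1 by 0.79 ± 0.13. Over a list of 20 NAD, creatine and ketone body genes 10 rose and 5 fell. Without reloaded mice 2 and 4, 6 rose and 6 fell.

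Clock genes, which were read in muscles all taken at about the same hour of the morning per the design text, were mostly lower: 10 of 19 fell and 1 rose (median -0.51), also without reloaded mice 2 and 4. The period gene Per2, a repressor of the clock loop, went from 27.7 to 35.4 CPM (median 31.1) to 14.5, 21.7, 11.5 and 11.4 CPM (-1.08 ± 0.27, adjusted p = 0.00126), and its relative Per1 from 60.1 to 83.8 CPM (median 69.2) to 47.4, 37.1, 24.1 and 27.2 CPM (-1.06 ± 0.27, adjusted p = 0.00149). All reloaded mice were below all unloaded mice in both genes. Bhlhe41 rose from 17.7 to 21.8 CPM (median 19.4) to 30.2, 32.4, 37.3 and 45.1 CPM (0.87 ± 0.19, adjusted p = 0.000221). The core activator gene Arntl (-0.19 ± 0.31, adjusted p = 0.648), Dbp (0.23 ± 0.36, adjusted p = 0.622) and Nr1d1 (0.12 ± 0.24, adjusted p = 0.715) did not pass the test.

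Among growth signals, Igf1, the growth factor that fibres and macrophages release on loading, went from 14.5 to 22.9 CPM (median 17.2) to 34.5, 30.03, 37.04 and 26.7 CPM (0.87 ± 0.17, adjusted p = 7.28e-05). The imprinted noncoding gene H19, abundant in regenerating muscle, went from 121 to 289.9 CPM (median 255) to 962, 335, 569 and 522 CPM (1.36 ± 0.21, adjusted p = 1.36e-06), and Pik3r1, a regulatory subunit of phosphoinositide 3-kinase, fell from 155 to 192 CPM (median 173) to 71.6, 82.97, 77.8 and 64.9 CPM (-1.21 ± 0.11, adjusted p = 3.53e-11). None of the 3 overlapped between the groups. The binding protein gene Igfbp7 rose by 1.10 ± 0.12. Over the axis 9 of 26 genes rose and 7 fell (34.6% and 26.9%, against 27.8% and 23.5% of all genes). Of 38 genes of myostatin, activin, TGF-beta and BMP signalling 8 rose and 6 fell. These shares (21.1% and 15.8%) were below those of all genes. Mstn, for myostatin, the inhibitor of muscle growth, was at 0.764 to 2.29 CPM (median 1.71) in unloaded and 1.76, 1.35, 1.43 and 0.970 CPM in reloaded mice (-0.25 ± 0.39, adjusted p = 0.616). Its receptor gene Acvr2b, however, fell from 36.1 to 55.7 CPM (median 49.3) to 19.1, 24.5, 21.8 and 24.6 CPM (-1.08 ± 0.15, adjusted p = 2.72e-07), the type I receptor gene Acvr1b fell by 0.90 ± 0.15 and Tgfbr3 by 0.84 ± 0.08. The ligand genes Tgfb1 (0.75 ± 0.18) and Inhba (0.96 ± 0.18), the activin antagonist gene Fstl3 (1.04 ± 0.19) and Ltbp2, which holds latent complexes in the matrix, rose; Ltbp2 went from 0.899 to 2.99 CPM (median 2.11) to 36.6, 4.15, 24.6 and 11.6 CPM (3.24 ± 0.38, adjusted p = 1.62e-08).

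In the Wnt group the fall of Dkk2 was joined by that of the ligand gene Wnt4, from 1.66 to 8.99 CPM (median 3.86) to 0.809, 1.46, 1.12 and 0.794 CPM (-2.10 ± 0.38, adjusted p = 2.03e-05). Of the 18 tested 7 rose and 2 fell (38.9% and 11.1%, against 27.8% and 23.5% of all genes). Axin2, a feedback target of canonical Wnt signalling, went from 6.50 to 10.1 CPM (median 7.67) to 14.5, 11.99, 12.2 and 11.3 CPM (0.65 ± 0.15, adjusted p = 0.00041) and the noncanonical ligand gene Wnt5a rose by 0.69 ± 0.12. A list of 20 alpha-arrestin, Kelch-like and other unloading-linked genes was split, with 8 lower and 7 higher (40% and 35%, against 23.5% and 27.8% of all genes). Klhl38 went from 76.2 to 106 CPM (median 83.9) to 14.5, 26.4, 17.7 and 19.6 CPM (-2.18 ± 0.22, adjusted p = 7.85e-10) and Klhl40, a stabiliser of thin filaments, from 157 to 245 CPM (median 210.1) to 545, 328, 402 and 429 CPM (1.07 ± 0.16, adjusted p = 9.4e-07). Members of a single family thus moved in opposite directions, each with no overlap between the groups.

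Tfrc, the transferrin receptor that imports iron, went from 21.7 to 30.8 CPM (median 28.8) to 98.6, 68.9, 265 and 287 CPM (2.69 ± 0.37, adjusted p = 3.21e-07), with mice 3 and 4 several times above mice 1 and 2. The ferritin gene Fth1 fell by 0.63 ± 0.10. Nqo1, an antioxidant target of Nrf2, went from 63.8 to 126 CPM (median 87.3) to 25.3, 23.4, 20.1 and 24.96 CPM (-2.0 ± 0.18, adjusted p = 8.43e-11). Of 30 genes of oxidative stress and iron 14 fell and 6 rose (46.7% and 20%, against 23.5% and 27.8% of all genes). Among polyamine genes, Odc1, the first enzyme of the pathway, went from 68.2 to 92.8 CPM (median 83.4) to 202, 159, 217 and 193 CPM (1.22 ± 0.17, adjusted p = 2.59e-07), and its antizyme inhibitor gene Azin1 from 27.9 to 43.98 CPM (median 40.2) to 132, 97.7, 127 and 126 CPM (1.66 ± 0.17, adjusted p = 8.22e-10). Paox, which oxidises polyamines, fell by 1.08 ± 0.15. None of the 3 overlapped between the groups. Over the whole list of 13 polyamine genes 4 rose and 2 fell (30.8% and 15.4%, against 27.8% and 23.5% of all genes), with a median of -0.05. Of 25 immediate early genes 6 rose and 3 fell, near the share of all genes, with Jund at 0.96 ± 0.18, Atf3 at 1.87 ± 0.63, Zfp36 at -1.18 ± 0.23 and Fos at 0.33 ± 0.48, adjusted p = 0.588.

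Markers of other cells in the muscle give the setting of these values. Of 21 endothelial genes 9 rose and 1 fell (42.9% and 4.76%, against 27.8% and 23.5% of all genes). The fenestral diaphragm gene Plvap went from 3.61 to 4.94 CPM (median 4.47) to 12.5, 9.07, 10.1 and 7.29 CPM (1.15 ± 0.15, adjusted p = 1.04e-07), and the receptor gene Kdr was at 0.84 ± 0.16. Among genes of fibro-adipogenic progenitors, the stromal cells that make much of the matrix, 8 of 14 rose and 2 fell. Mfap5 went from 6.64 to 13.6 CPM (median 11.9) to 40.1, 15.9, 35.5 and 30.05 CPM (1.47 ± 0.19, adjusted p = 8.81e-08) and Pi16 rose by 1.12 ± 0.19. Dcn, which is also in this list, fell (-0.68). The summed level of the list was lower after reloading, with 1237 to 1608 CPM in unloaded and 1007 to 1223 CPM in reloaded mice. Of 10 tendon genes 2 rose: the matrix gene Thbs4 went from 67.6 to 145 CPM (median 127) to 484, 145, 404 and 277 CPM (1.44 ± 0.23, adjusted p = 4.7e-06) and the tendon factor gene Scx from 1.27 to 3.72 CPM (median 2.29) to 12.7, 3.83, 11.6 and 5.03 CPM (1.74 ± 0.32, adjusted p = 2.81e-05). In both, mice 1 and 3 were highest, the order seen for collagens. The other 8 were not called, the share that rose (20%) was below the 27.8% of all genes, and the median change of the list was -0.24. The summed tendon markers, Thbs4 included, ran from 167 to 339 CPM in unloaded to 248 to 588 CPM in reloaded mice. The part of tendon or fascia in the matrix values was not tested. Adipocyte genes (2 of 12 lower), Schwann cell genes (1 higher and 1 lower of 12), mast cell genes (1 lower of 7), erythroid genes (1 lower of 10) and epithelial genes (0 of 5) gave few calls; without reloaded mice 2 and 4 the Schwann cell genes gave 1 higher and 3 lower, and the mast cell and erythroid genes 0 lower each. Malat1, an abundant nuclear RNA, went from 9317 to 12245 CPM (median 9914) to 17923, 16557, 16015 and 16429 CPM (0.70 ± 0.11, adjusted p = 1.33e-06).

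**Figure D4:**
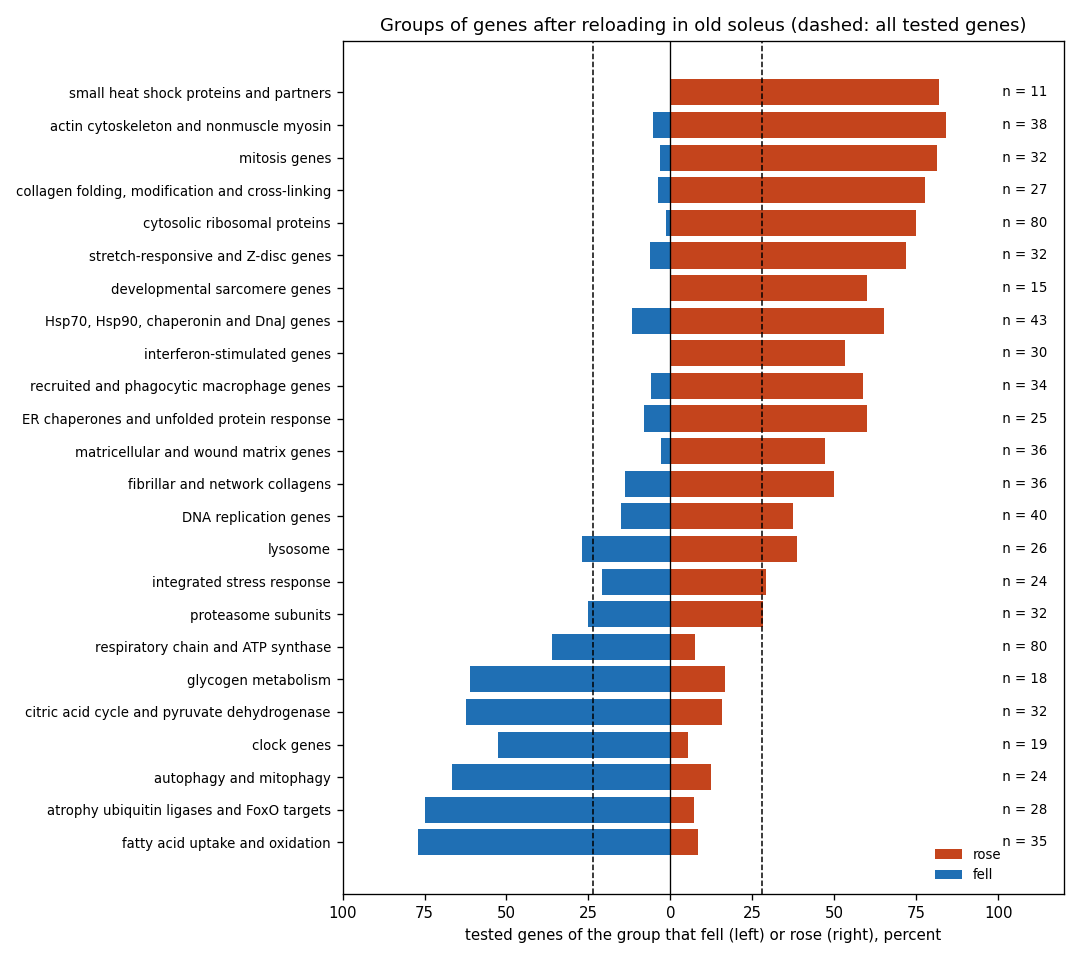
Share of the tested genes of 24 groups that rose (right) and fell (left) after reloading in old soleus, in percent; dashed lines mark the 27.8% and 23.5% of all tested genes. Numbers at the right give the genes tested. Among the groups drawn, actin cytoskeleton, small heat shock protein, mitosis, collagen enzyme and ribosomal protein genes had the highest shares that rose, and fatty acid and atrophy genes the highest that fell.

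Whether old muscle answers reloading differently from young was tested gene by gene, as the difference of the 2 responses. In young mice 26.4% of genes rose and 21.5% fell; the difference was called for 0.778% of genes, with 0.492% more positive and 0.286% more negative in old mice. Of the 20 such genes named here, Ldhd, Myh14 and Suox were called under every alternative run, and 15 were lost when only the 4 groups compared entered the fit, where 17 genes were called in all. Without old reloaded mice 2 and 4, 5 of the 20 were lost (Acaca, Aurkb, Dgat1, Itgb1bp2 and Traf6). With no library over 20 CPM of Alb in the fit, 12 were lost: these 5 and Acly, Adamts14, Ccng1, Elovl6, Fgf1, Hook3 and Mitf. Most of the groups above held few or no genes whose response differed: 0 of the 36 collagen, 0 of the 80 ribosomal protein, 0 of the 11 small heat shock and 0 of the 30 interferon-stimulated genes were called by edgeR. At an unadjusted p under 0.05 the numbers were 4, 15, 3 and 3, and DESeq2 called 0, 1, 1 and 0. A difference that misses the threshold does not show that the ages respond alike. Interferon-stimulated genes gave 0 calls in young mice (4 at an unadjusted p under 0.05), with Isg15 at 0.16 ± 0.51 there, but their difference was not called. Ribosomal protein genes gave 27 rises and a median of 0.12 in young mice. The mitosis genes had a median of 2.76 in young against 1.45 in old mice, and 1 of 32, Aurkb, was called as different (2.34 ± 0.41 in old, 5.79 ± 0.63 in young, difference -3.45 ± 0.84, adjusted p = 0.0383). That call was lost without old reloaded mice 2 and 4 (adjusted p = 0.0901) and again with no library over 20 CPM of Alb in the fit (0.18). At an unadjusted p under 0.05, 25 of the mitosis genes differed, and DESeq2 called 4.

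Ldhd, a mitochondrial D-lactate dehydrogenase (mm10 chromosome 8, 111626271 to 111630323), fell in old mice from 17.8 to 26.7 CPM (median 20.01) to 11.5, 14.8, 10.6 and 8.50 CPM (-0.88 ± 0.13, adjusted p = 5.96e-07) and had a value of 0.20 ± 0.13 in young mice, a difference of -1.08 ± 0.18 (adjusted p = 0.0137). Fgf1, for acidic fibroblast growth factor, fell in old (-0.29 ± 0.12) and rose in young mice (0.65 ± 0.13; difference -0.94 ± 0.18, adjusted p = 0.0139). In old mice its groups overlapped, and the fall was not called without reloaded mice 2 and 4 (adjusted p = 0.171). Xirp2 rose in both, by more in old mice (2.42 ± 0.14 against 1.36 ± 0.15; difference 1.06 ± 0.20, adjusted p = 0.0139), and Myh14 fell in both, by less in old mice (difference 0.78 ± 0.14, adjusted p = 0.0137). Timp3 fell in old mice and had a value of -0.15 ± 0.12 in young mice (difference -0.76 ± 0.17, adjusted p = 0.0274), while Adamts14, a collagen-trimming protease, rose in young mice (1.24 ± 0.17) and had a value of 0.27 ± 0.15 in old mice (difference -0.97 ± 0.22, adjusted p = 0.0293). Suox (0.78 ± 0.15), Hook3 (0.42 ± 0.08), Mitf (0.45 ± 0.09) and Plpp3 (-0.58 ± 0.11) complete the genes of smallest adjusted p apart from the lipid genes. Suox, the sulphite oxidase gene, the microtubule adaptor gene Hook3 and the transcription factor gene Mitf fell in young mice and were not called in old mice, and the lipid phosphatase gene Plpp3 rose in both, though its rise in old mice was not called without reloaded mice 2 and 4 (adjusted p = 0.0686). Other genes of the lists whose response differed were the cyclin gene Ccng1 (0.59 ± 0.13), the Kelch-like gene Klhl31 (0.70 ± 0.16) and Itgb1bp2, for the stretch-sensing protein melusin (0.72 ± 0.17), each more positive in old mice. The proteasome subunit gene Psmd6 (0.34 ± 0.08) was likewise more positive and Traf6 (-0.36 ± 0.08) more negative in old mice. With its most abundant transcript alone the difference of Traf6 was -0.06 (adjusted p = 0.913). That of Psmd6 was not called with no filter on low counts (adjusted p = 0.0635) or with a replicate block (0.0655). It was also lost when any of several single mice was left out, such as old reloaded mouse 1 (0.0606). Without old reloaded mice 2 and 4 the differences of Itgb1bp2 (adjusted p = 0.0503) and Traf6 (0.0503) were not called. The same fit lost the changes called within old mice for Klhl31 (adjusted p = 0.221), Psmd6 (0.0789) and Itgb1bp2 (0.126).

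The lipid genes Acly, Elovl6, Acaca and Dgat1 also differed, with differences of 1.23 ± 0.22, 2.65 ± 0.49, 0.80 ± 0.20 and 0.43 ± 0.10. Acly, the enzyme that makes cytosolic acetyl-CoA, was at 44.6, 96.8, 43.7 and 51.6 CPM in old reloaded mice 1 to 4 against 32.7 to 41 CPM (median 36.7) in unloaded mice. Mouse 2, with the highest Alb, was the highest in Acly, Elovl6 and Acaca. Without reloaded mice 2 and 4 the old responses were 0.24 for Acly, 0.97 for Elovl6 and -0.42 for Acaca. In that fit the rises of Acly (adjusted p = 0.13) and Dgat1 (0.18) in old mice were lost, and Acaca was called lower (0.00576). Alb was also above 20 CPM in 3 young libraries of this comparison. Refitted without old reloaded mice 2 and 4, the differences of Acaca (0.46, adjusted p = 0.176) and Dgat1 (0.42, 0.0937) were not called, while those of Acly and Elovl6 were. Without every library above 20 CPM of Alb none of the 4 was called: adjusted p was 0.105 for Acly (0.67), 0.104 for Elovl6 (1.62), 0.426 for Acaca (0.36) and 0.31 for Dgat1 (0.35).

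**Figure D5:**
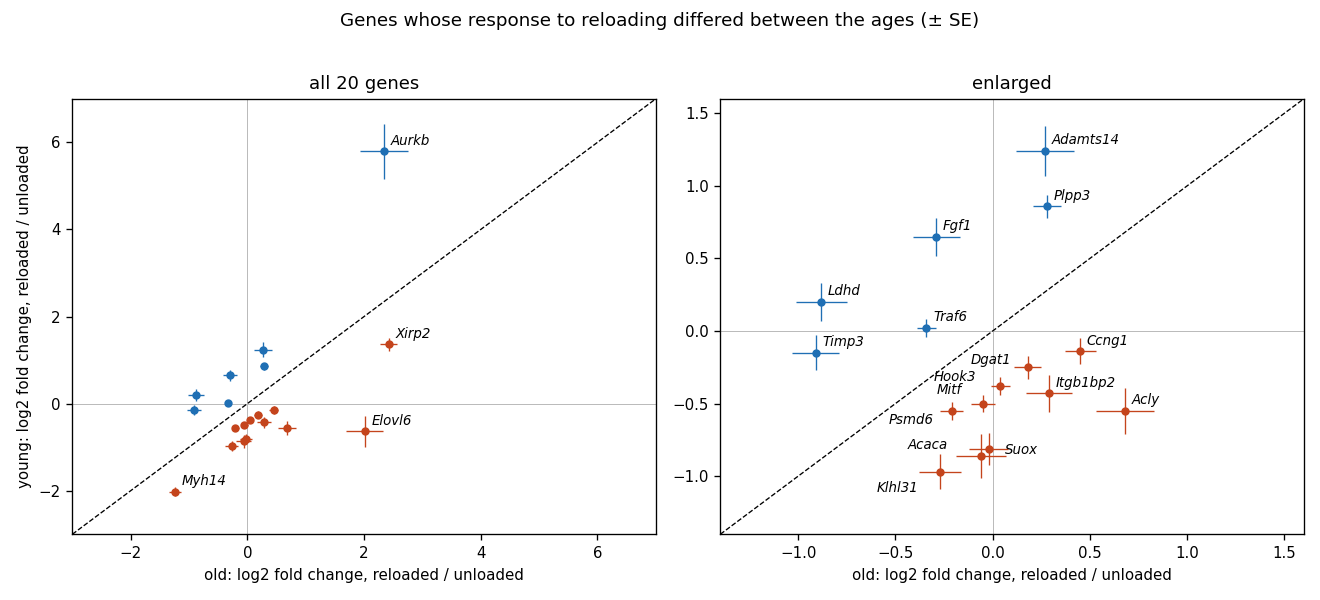
Log2 fold change of reloaded against unloaded mice in old (x axis) and young (y axis) muscle for the 20 named genes whose response differed between the ages; bars are standard errors and the dashed line marks equal responses. Red points are more positive in old mice and blue points more negative, and the right panel enlarges the centre. Aurkb, Adamts14, Ldhd, Fgf1 and Timp3 lay on the side of a more positive young response and Elovl6, Acly, Xirp2 and Myh14 on the other.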

How the data were processed

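Soleus RNA from 36 mice had been sequenced as single reads of 50 bases on 1 flow cell, per the labels. The tools behind the table were TopHat2 2.0.1, Partek 6.6 and DESeq, with the build mm10, per the submitters' processing notes, which name them without a role or an order. The deposited table held estimated counts for 31668 transcripts. The authors' RPKM values, deposited beside them, were not used here. Of the transcript values 55.68% were whole within 0.01 reads, and of the gene sums 94.94%. Transcript reads were added up into 21156 genes, with 25 genes restored from symbols that had been turned into dates, and rounded. The labels name a stranded total RNA kit and another kit, while the sources used here do not say whether counting used strand, so antisense partners, overlapping genes and near-identical copies remain uncertain.

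Counts were tested with edgeR 4.0.16 (R 4.3.3): TMM scaling, filterByExpr, and a quasi-likelihood fit of all 36 libraries with 6 group coefficients, which kept 15031 genes and 30 residual degrees of freedom. P-values were Benjamini-Hochberg adjusted over all genes tested and called under 0.05. The files turned out to hold estimated rather than whole counts, and the test stayed as designed. The standard error is the absolute log2 fold change divided by the root of F. On simulated counts for old reloading against old unloading (14916 genes), 62 of 100 genes changed 1.5-fold and 84 of 100 changed 2-fold were recovered, with 5 false calls. The simulation changed only these genes and gave every other gene the same mean in all groups. In the data 51.3% of genes were called, so the simulated figures need not hold for the reported calls. No 2 libraries of a group were alike within sampling noise, the chi-square divided by its degrees of freedom being at least 19.3. Each library is 1 mouse, numbered within its group.

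The members and lists were chosen with earlier results of these data known. Genes were named by rule: the 10 largest rises and falls called with and without reloaded mice 2 and 4 with an average of 8 CPM or more, up to 6 leading members of each of 60 lists with members that moved against them or were not called, a set of tracked genes, and the genes of smallest p for the age difference. Alternatives were DESeq2 1.42.0, other scaling and filters, fewer groups, a replicate block, 1 transcript per gene and left-out libraries. Some genes that the rule would name are not reported here.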

Additional observations from a re-analysis of the deposited data

Results flagged for a closer look

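In 214 groups of 4 or 6 libraries, 1 for each gene described by its level in every mouse and each old group, 11 held a mouse whose gap to the nearest other mouse took an unusually large part of the range (over 0.829 of it with 4 mice and over 0.625 with 6). Chance gives about 1 in 20 such groups. Old reloaded mouse 2 stood apart in 5 of them, with 1743 CPM of Alb, 23.7 CPM of Arg1, 350.3 CPM of C3, 96.8 CPM of Acly and 19.3 CPM of Elovl6, and was the highest in each. Unloaded mouse 6 was the highest of its group in Alb (36.2 CPM) and in Arg1 (0.588 CPM). Reloaded mouse 1 was the lowest in the myoglobin gene Mb, at 1718 CPM, and the highest in the myogenic factor gene Myog, at 44.2 CPM. Unloaded mouse 1 was the highest in the chemokine gene Cxcl12, at 95.1 CPM, and unloaded mouse 5 the lowest in the tendon and matrix gene Thbs4, at 67.6 CPM.

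The reloading response differed between the ages for 20 of the named genes by the interaction contrast of edgeR, with values given as old minus young on the log2 scale. It was more positive in old mice for the lipid genes Elovl6 (2.65), Acly (1.23), Acaca (0.80) and Dgat1 (0.43), for the stretch-related genes Xirp2 (1.06) and Itgb1bp2 (0.72), for Myh14 (0.78), Suox (0.78), Klhl31 (0.70), Ccng1 (0.59), Mitf (0.45) and Hook3 (0.42), and for the proteasome gene Psmd6 (0.34). It was more negative in old mice for the mitotic kinase gene Aurkb (-3.45), for Ldhd (-1.08), the protease gene Adamts14 (-0.97), Fgf1 (-0.94), the inhibitor gene Timp3 (-0.76), Plpp3 (-0.58) and Traf6 (-0.36).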

How the results depend on the processing

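For reloading in old mice, 7717 genes were called, and the count lay between 5972 (stricter filter) and 7741 (no filter) under every alternative, with 6912 to 7514 when single mice were left out. Of 266 named genes called, 236 were called in the same direction under every alternative, and 16 were lost without at least 1 mouse. Without reloaded mice 2 and 4 the values of Alb (-0.64) and Cfi (-0.86) turned negative, and the most abundant transcript of Nrap gave -0.48; the cause was not tested. For the difference between the ages, 117 genes were called as reported, 400 by DESeq2, 17 with only the 4 groups compared in the fit and 55 after removing the 6 libraries with over 20 CPM of Alb. Leaving out single mice gave 47 (without old reloaded mouse 4) to 258 (without young reloaded mouse 1). The count also moved by over 1.5 times without old reloaded mouse 1 (187) or 3 (181), old unloaded mouse 3 (77) or 6 (210), young reloaded mouse 3 (59) and young unloaded mouse 2 (57) or 4 (65). Of the 20 named age differences 3 were called under every alternative and 10 were lost without at least 1 mouse.

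Mouse numbers did not pair the mice: deviations of same-numbered unloaded and reloaded old mice had correlations of -0.071, -0.225, 0.149 and -0.229. With the number as a replicate block, 7364 genes were called in old mice (7164 of them as reported) and 97 for the age difference (75 as reported). With 2 reloaded mice left after removing mice 2 and 4, the spread was taken from all groups. Genes below about 1 CPM, Arg1 among them, rest on few reads.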
